A study of Sus scrofa domesticus with 150 samples.

Results

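The genes described here are 7 genes of lymphatic vessels: VEGFC, VEGFD, FLT4, PROX1, RELN, LYVE1 and PDPN. They were picked from the gene count table by symbol alone, and they are 7 of the 30461 genes listed. Each was found as a single row. The symbol stood in the name column for all but FLT4 and RELN, whose symbols came from the protein match in the gene description. The table came from a time course of wound healing in 6 female domestic pigs of a Yorkshire mix, each with circular full-thickness excisional wounds on the back that were dressed and received no other treatment. Messenger RNA was sequenced in 150 samples, which fall into 29 states of day and location. Day 0 was the skin excised at wounding, with 6 samples, 1 from each animal. On days 1 to 7, 9, 11 and 13, 6 biopsies of the wound edge and 6 of the wound center were taken from 2 wounds in each of 3 animals, and on days 15, 16, 19 and 21 there were 3 of each, from 1 wound in each of 3 animals. Samples of the edge and the center with the same number came from the same wound, and there were 72 such wounds. Animals 1 to 3 were sampled on days 1, 3, 5, 7, 11, 15 and 21, and animals 4 to 6 on days 2, 4, 6, 9, 13, 16 and 19, so that a difference between single days and a difference between the sets of animals cannot be told apart. Day 0 samples were whole excised skin and later samples were punch biopsies, which likewise cannot be told apart from the effect of wounding.

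Lymphatic capillaries of the skin take up fluid, protein and immune cells from the tissue and lead them to lymph nodes. Their endothelial cells arise from veins under the transcription factor PROX1 and depend on the receptor FLT4, also called VEGFR3, which binds the growth factors VEGFC and VEGFD. In wounds the vessels are cut and grow back into the granulation tissue, usually after the blood vessels. Several markers of these vessels are shared with other cells. LYVE1, a receptor for hyaluronan, is also made by some macrophages, and PDPN, a mucin-type membrane protein, is also made by fibroblasts and by basal keratinocytes.

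Total counts per sample ranged from 13133379 to 24895572. Day 0 tissue carried the keratins of skin, with a median KRT5 of 13.0 on the log2(1 + CPM) scale, where CPM is a gene's counts divided by the sample's total and scaled to a common total. In the center KRT5 had a median of 5.30 on days 1 to 3, 4.79 on days 4 to 7, 5.31 on days 9 to 13 and 11.7 on days 15 to 21, whereas at the edge it stayed between 12.2 and 13.3. A set of 7 samples, called the samples apart here, was chosen with earlier results of these data known, mainly from correlations of unlogged counts within states. On the log2 scale over 14081 genes, the mean correlation with the other samples of the state was 0.831 to 0.905 for 6 of them and 0.964 for day 5 edge 6, beside a median of 0.953 for the other 143 samples. Day 9 edge 5 (0.892) and day 3 center 3 (0.896) were as low and were not in the set. In the sample labelled day 3 center 4, KRT5 was at 12.6 and KRT10, a keratin of the upper epidermis, at 13.4, and in that labelled day 3 edge 6 they were at 4.26 and 3.30, so that both went against their labelled location. The edge and the center of wound 4 of day 3 had an r of 0.994, rank 1 among all 11175 pairs of samples, and those of wound 6 had 0.986, rank 6. Summed CPM of skeletal muscle genes exceeded 1000 in 10 samples, of which 3 were among those apart. In day 11 center 1, also apart, KRT5 was at 12.3 and KRT10 at 7.02, beside medians of 5.31 and 5.66 in the center on days 9 to 13. Calls over all days and by period that changed without the samples apart are given below with and without them. Results of single days other than day 3 are given with them only.

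All 7 genes were counted in each of the 150 samples. PROX1 was the gene with the fewest counts, between 5 and 119 in a sample, and PDPN the one with the most, between 597 and 6239. The other genes lay between 21 and 1930. The deposited coordinates, on contigs of an assembly that is not named in the sources used here, placed VEGFC (ENSSSCG00025062690) at bases 1218662 to 1313807 of LUXX01079214.1 and VEGFD (ENSSSCG00025070776) at 267271 to 307849 of LUXX01098651.1, both on the plus strand. FLT4 (ENSSSCG00025050508) lay at 247507 to 286601 of LUXX01065618.1 on the plus strand and PROX1 (ENSSSCG00025072634) at 4688123 to 4736889 of LUXX01058647.1 on the minus strand. RELN (ENSSSCG00025037846) lay at 2695846 to 3194806 of LUXX01050321.1, LYVE1 (ENSSSCG00025022399) at 1054262 to 1071074 of LUXX01024205.1 and PDPN (ENSSSCG00025023894) at 647082 to 678000 of LUXX01046136.1, all on the minus strand. Per length of the gene, PDPN had the highest mean level on day 0, with 19.0 ± 5.40 CPM per kilobase (SD, n = 6 samples). VEGFD followed with 5.07 ± 1.32 and LYVE1 with 3.48 ± 1.06. VEGFC had 2.29 ± 0.505 and FLT4 had 1.89 ± 0.436, and these neighbours in the order differed by less than their SD. PROX1 with 0.717 ± 0.363 and RELN with 0.582 ± 0.116 were the lowest and also differed by less than their SD. In the center on day 1, LYVE1 stood at 24.5 ± 7.17 CPM per kilobase, and in the center on day 13 PDPN stood at 91.9 ± 32.0.

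**Figure D1:**
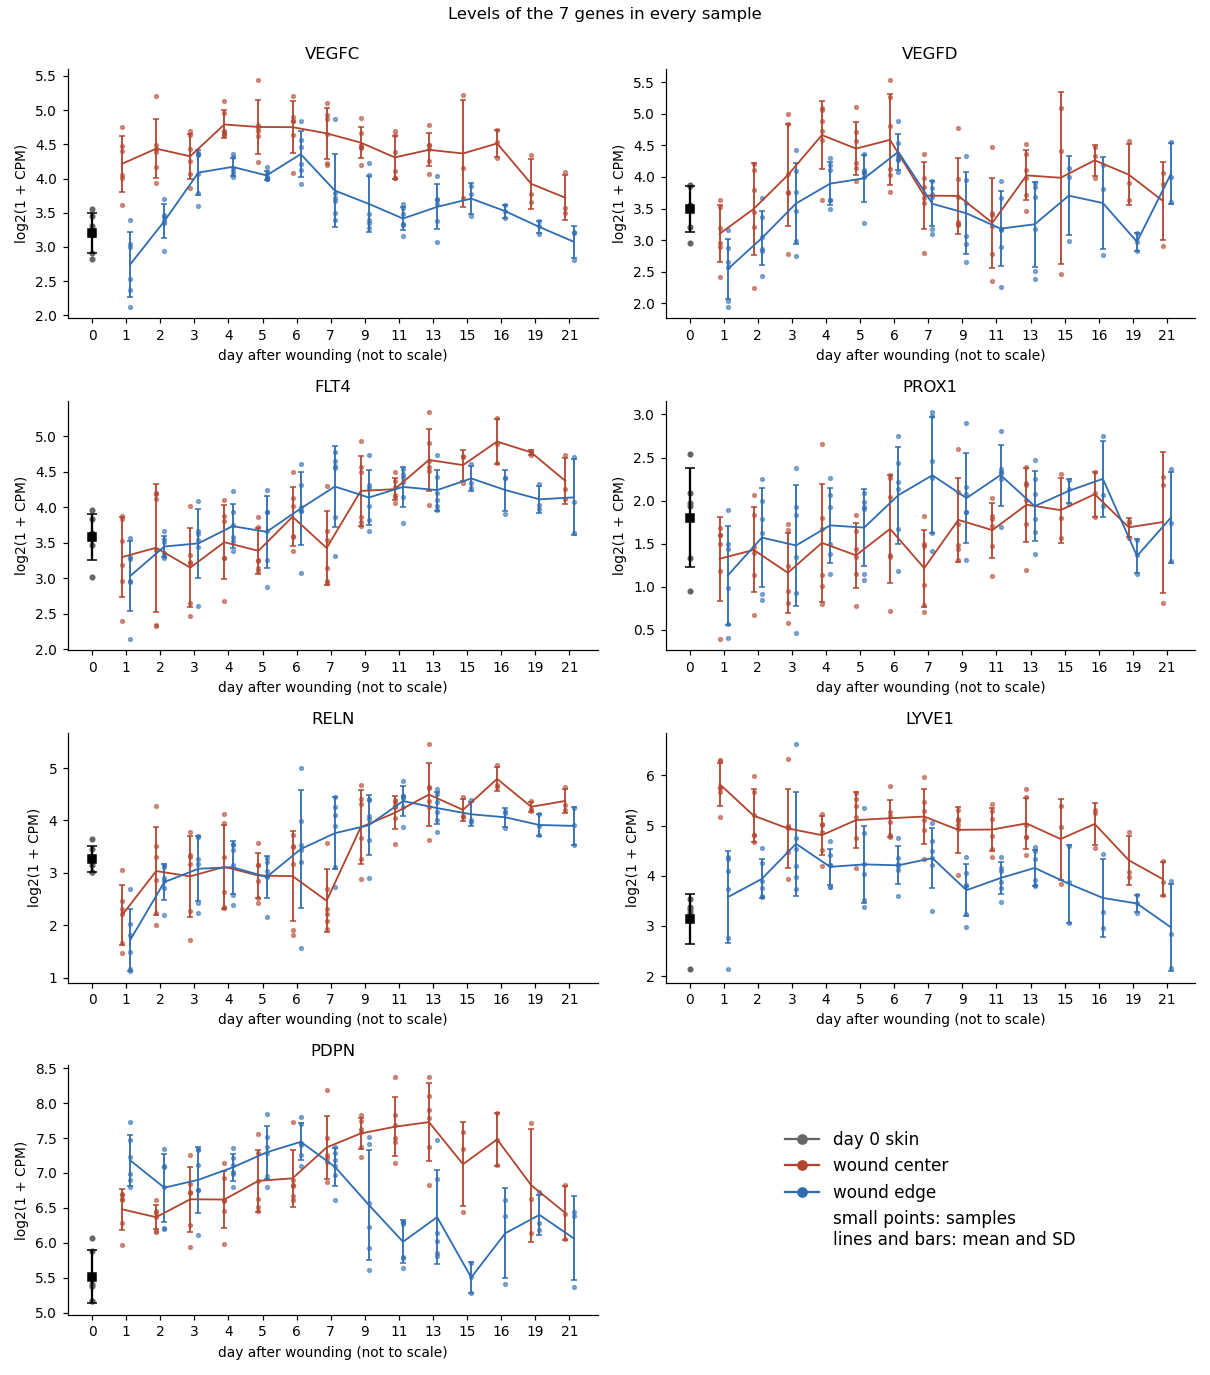
Levels of the 7 genes in all 150 samples as log2(1 + CPM), by day after wounding (not to scale), with day 0 skin in grey, the wound center in red and the wound edge in blue. Small points are samples, and lines with bars are the mean and SD of each state. LYVE1 and VEGFC run higher in the center than at the edge throughout the 14 days, the PDPN lines cross after day 6, and FLT4 and RELN end higher than on day 0.

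Levels were compared in a single fit of all samples with edgeR's quasi-likelihood test, which passed 17916 genes including all 7. A gene was called at a Benjamini-Hochberg adjusted p below 0.05, and fold changes are given on the log2 scale with their standard error (SE). Wounds of an animal entered as separate samples. The mean of the 14 edge states was first set against the mean of the 14 center states. Of the 7 genes, 1 was higher at the edge (PROX1) and 4 were lower there (LYVE1, VEGFC, VEGFD and PDPN), while 32.5% of all genes tested were higher and 33.8% lower. The median of the 7 changes was -0.362, beside -0.0132 over all genes.

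Levels in 4 periods at each location were then set against day 0. These 8 comparisons share the 6 samples of day 0. In the center, 3 genes were higher and 2 lower on days 1 to 3 (background 33.6% and 33.2%), 4 were higher and 0 lower on days 4 to 7 (34.3% and 36.9%), 5 and 0 on days 9 to 13 (31.7% and 34.1%), and 6 and 0 on days 15 to 21 (26.5% and 30.2%). At the edge, 2 were higher and 1 lower on days 1 to 3 (24.9% and 23.9%), 3 and 0 on days 4 to 7 (28.4% and 28.1%), 5 and 0 on days 9 to 13 (25% and 21.0%), and 3 and 0 on days 15 to 21 (18.1% and 16.6%). In the periods with 0 lower genes, none of the 7 was lower at an unadjusted p below 0.05 with edgeR or DESeq2. The median change of the 7 genes in the center went from -0.0104 through 0.912 and 1.14 to 1.29, beside -0.0511 to 0.011 over all genes, and at the edge from -0.367 through 0.470 and 0.828 to 0.528, beside -0.0413 to 0.022. Days 15 to 21 were also set against days 4 to 7, where 3 genes were higher and 1 lower in the center (26.2% and 26.3%) and 2 were higher and 3 lower at the edge (18.2% and 22.7%). Normalization set these splits in part. With scaling by total counts alone, without TMM, the share of higher genes among all those called went from 46.8% to 36.3% in the center on days 15 to 21, and at the edge from 51.0% to 61.8% on days 1 to 3, from 54.4% to 39.5% on days 9 to 13 and from 52.1% to 32.4% on days 15 to 21. For days 15 to 21 against days 4 to 7 it went from 49.9% to 31.0% in the center and from 44.5% to 20.2% at the edge. The median over all genes moved by between -0.191 and 0.129 under that scaling.

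**Figure D2:**
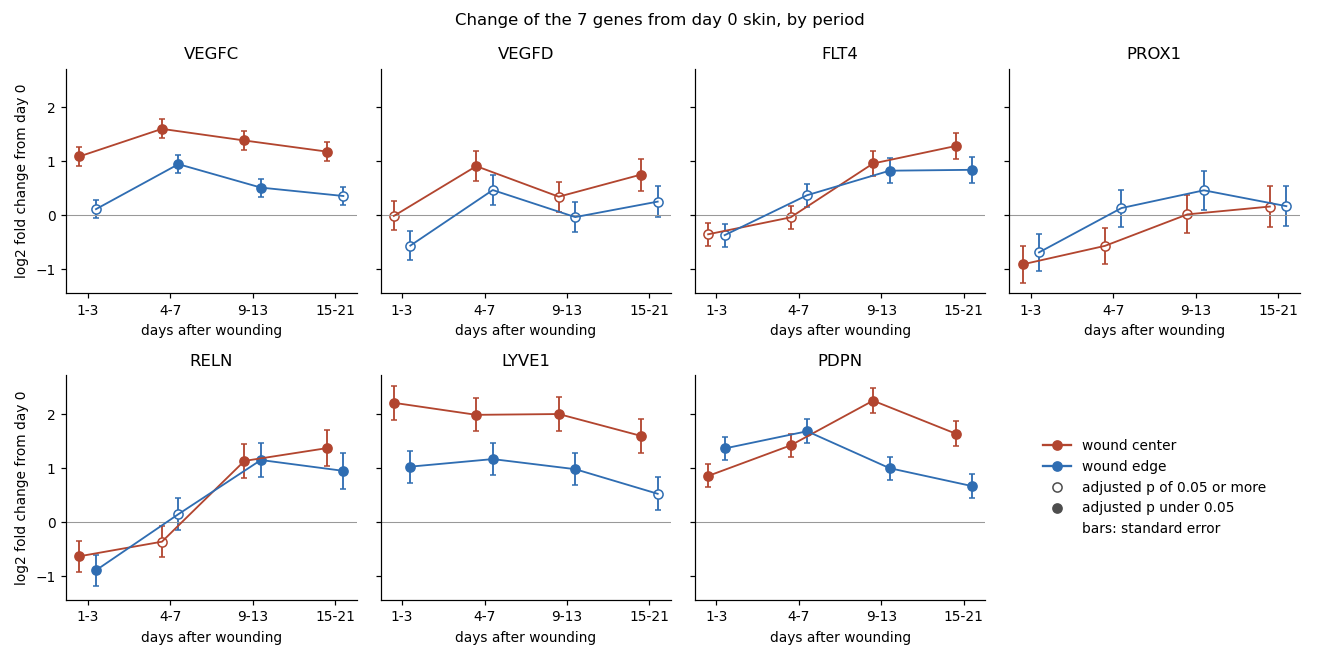
Log2 fold change of each of the 7 genes from day 0 skin in 4 periods, in the wound center (red) and at the wound edge (blue), with the standard error as bars. Filled points have an adjusted p under 0.05. LYVE1, PDPN and VEGFC lie above 0 in the center in every period, and FLT4 and RELN pass the threshold upwards at both locations on days 9 to 13 and 15 to 21.

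VEGFC, the main growth factor for lymphatic endothelium, was higher in the center than at the edge and higher in the center than in day 0 skin in all 4 periods. On day 0 its lowest, median and highest levels were 2.83, 3.24 and 3.55 log2(1 + CPM). On day 4, the state with the highest mean, the center samples had 4.63, 4.68 and 5.13 and the edge samples 4.03, 4.13 and 4.35. No edge sample of that day reached the lowest center sample, and the lowest center sample of days 1 to 13, at 3.61, was above the highest of day 0. From day 0 the center rose by 1.09 (SE 0.17, adjusted p = 1.96e-08) on days 1 to 3, by 1.60 (SE 0.18, adjusted p = 1.24e-14) on days 4 to 7, by 1.39 on days 9 to 13 and by 1.18 on days 15 to 21. The edge had a change of 0.12 (SE 0.16, adjusted p = 0.583) on days 1 to 3, rose by 0.95 (adjusted p = 7.34e-07) on days 4 to 7 and by 0.52 (adjusted p = 0.0080) on days 9 to 13, and had 0.36 (adjusted p = 0.103) on days 15 to 21. In bulk tissue, more cells of a type and more RNA per cell cannot be told apart. Within wounds the center was higher in 70 of 72, and the edge minus center difference was -0.82 (SE 0.061, adjusted p = 8.34e-25), a 1.76-fold lower level at the edge. From days 4 to 7 to days 15 to 21 VEGFC decreased by 0.42 in the center (adjusted p = 0.00242, 0.151 without replicate 1) and by 0.59 at the edge (adjusted p = 4.79e-05). Without TMM the edge on days 9 to 13 kept its direction with an adjusted p of 0.0660.

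VEGFD, the second ligand of FLT4, had the widest spread within states of the 7 genes, with a median SD of 0.527 on the log2 scale. Its day 0 levels were 2.96, 3.53 and 3.87 log2(1 + CPM). In the center they were 3.64, 4.80 and 5.09 on day 4, which was its highest state, and 2.35, 3.31 and 4.47 on day 11. The samples of day 11 spanned the whole range of day 0. The center was higher than day 0 by 0.91 (SE 0.28, adjusted p = 0.00240) on days 4 to 7 and by 0.76 (SE 0.30, adjusted p = 0.0231) on days 15 to 21. The later call was lost without TMM (adjusted p = 0.0764) and in 2 of 6 fits that each left out 1 replicate number, with the highest adjusted p, 0.160, without replicate 3. On days 1 to 3 and 9 to 13 the change was -0.01 and 0.35, and at the edge it was between -0.56 and 0.47, none of them past the threshold. The edge on days 1 to 3 passed as lower with DESeq2 (-0.63, adjusted p = 0.0394) and with median-of-ratios size factors (-0.63, adjusted p = 0.0375). It also passed in 2 of 6 fits without 1 replicate number. The edge was lower than the center, at -0.47 (SE 0.10, adjusted p = 2.01e-05), and the center was higher in 52 of 72 wounds.

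FLT4, the receptor of both ligands, did not follow them. Its day 0 levels were 3.03, 3.59 and 3.96 log2(1 + CPM). In the center, days 4 to 7 had 2.68, 3.56 and 4.49 over 24 samples, and days 15 to 21 had 4.12, 4.73 and 5.26 over 12 samples, so that all late samples lay above those of day 0. The change in the center was -0.35 (SE 0.21, adjusted p = 0.139) on days 1 to 3 and -0.04 (adjusted p = 0.884) on days 4 to 7. It then rose by 0.96 (SE 0.23, adjusted p = 0.000127) on days 9 to 13 and by 1.28 (SE 0.24, adjusted p = 2.74e-06) on days 15 to 21, when it was 2.44-fold higher than in day 0 skin. At the edge the change was -0.37, 0.37, 0.83 (adjusted p = 0.00155) and 0.84 (adjusted p = 0.00306) in the same order. With the wounds of an animal summed, the edge on days 4 to 7 passed, at 0.41 (adjusted p = 0.0270). Between days 4 to 7 and days 15 to 21 FLT4 rose by 1.32 (SE 0.16, adjusted p = 1.52e-12) in the center and by 0.47 (SE 0.16, adjusted p = 0.0124) at the edge. The call at the edge was lost without TMM (adjusted p = 0.149) and in 2 of 6 fits without 1 replicate number, up to 0.215 without replicate 2. Over all days edge and center differed by -0.04 (SE 0.080, adjusted p = 0.689). The edge was higher in 18 of 24 wounds on days 4 to 7, and the center in 10 of 12 on days 15 to 21.

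PROX1, the transcription factor that sets lymphatic identity, was the only one of the 7 that was higher at the edge, by 0.35 (SE 0.13, adjusted p = 0.0155), and 45 of 72 wounds had the higher level there. That call rested on few counts and was lost without replicate 2 (adjusted p = 0.0612). Day 0 levels were 0.95, 1.95 and 2.54 log2(1 + CPM), the day 7 center had 0.71, 1.25 and 1.83, and the day 7 edge 1.41, 2.36 and 3.03. The samples of both locations overlapped on that day, although in each of its 6 wounds the edge was higher. Against day 0 PROX1 was lower in the center on days 1 to 3, at -0.91 (SE 0.34, adjusted p = 0.0138, 0.0665 without replicate 5), and passed the threshold in none of the other 7 comparisons, with changes between -0.69 and 0.46. The edge on days 1 to 3 passed as lower with the wounds of an animal summed, at -0.67 (adjusted p = 0.0373). It also passed in 1 of 6 fits without 1 replicate number. From days 4 to 7 to days 15 to 21 PROX1 rose by 0.73 in the center (SE 0.26, adjusted p = 0.0130), which was lost without TMM (adjusted p = 0.0706) and without replicate 3 (adjusted p = 0.0892), and at the edge the change was 0.04 (adjusted p = 0.936).

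RELN, a secreted glycoprotein that lymphatic endothelium releases and that is best known from the developing brain, had the largest range over the 29 states of the 7 genes, 3.07 on the log2 scale. Day 0 levels were 3.02, 3.22 and 3.65 log2(1 + CPM). The day 1 edge had 1.13, 1.66 and 2.70, all below day 0, and the day 16 center had 4.64, 4.68 and 5.05, all above it. On days 1 to 3 RELN was lower than on day 0 at the edge, at -0.89 (SE 0.29, adjusted p = 0.00714), and in the center, at -0.63 (SE 0.29, adjusted p = 0.0484). The call in the center was lost without TMM (adjusted p = 0.145), without the samples apart (0.0988), without wounds 4 and 6 of day 3 (0.0577), without the count filter (0.0529) and in 4 of 6 fits without 1 replicate number, up to 0.137 without replicate 3. On days 9 to 13 it was higher by 1.14 (SE 0.32, adjusted p = 0.00108) in the center and by 1.15 (SE 0.32, adjusted p = 0.00168) at the edge, and on days 15 to 21 by 1.37 (SE 0.34, adjusted p = 0.000253) and 0.95 (SE 0.33, adjusted p = 0.0168, 0.0652 without replicate 2). From days 4 to 7 to days 15 to 21 it rose by 1.73 in the center (SE 0.22, adjusted p = 1.04e-11), or 3.33-fold, and by 0.80 at the edge (adjusted p = 0.00160). Edge and center differed by -0.03 over all days (SE 0.11, adjusted p = 0.873), with the center higher in 11 of 12 wounds on days 15 to 21.

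LYVE1, the hyaluronan receptor, had the largest rise of the 7 genes in the center on days 1 to 3. Day 0 samples had 2.14, 3.31 and 3.54 log2(1 + CPM), and the day 1 center, its highest state, had 5.17, 5.76 and 6.31 beside 2.15, 3.92 and 4.37 at the day 1 edge. All 72 center samples, down to the lowest at 3.62 on day 21, lay above the 6 samples of day 0. The center was higher than day 0 by 2.21 (SE 0.32, adjusted p = 8.36e-10) on days 1 to 3, or 4.64-fold, by 1.99 on days 4 to 7, 2.01 on days 9 to 13 and 1.60 (SE 0.32, adjusted p = 6.78e-06) on days 15 to 21. The edge was higher by 1.03 (SE 0.30, adjusted p = 0.00226), 1.17 and 0.98 in the first 3 periods and had 0.53 (SE 0.30, adjusted p = 0.170) in the last. In the edge on days 1 to 3, the sample day 3 edge 6 was at 6.62, far above the others of its state. The change was 0.78 (adjusted p = 0.0117) without the samples apart, of which this is one, and 0.77 (adjusted p = 0.0115) without wounds 4 and 6 of day 3. Without replicate 6 it was 0.55 (adjusted p = 0.106), a fit that also lacks the lowest day 0 sample, that of animal 6 at 2.14. The edge was lower than the center, at -1.01 (SE 0.10, adjusted p = 3.04e-16), or 2.02-fold, and the center was higher in 68 of 72 wounds. From days 4 to 7 to days 15 to 21 LYVE1 decreased by 0.64 at the edge (SE 0.21, adjusted p = 0.0104), a call lost in 3 of 6 fits without 1 replicate number, up to 0.210 without replicate 1. In the center the change was -0.39 (adjusted p = 0.108), and with the animal as a block it was -0.42 (adjusted p = 0.0476). Without TMM this change was -0.58 (adjusted p = 0.0171).

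PDPN, the mucin-type protein, was the most abundant of the 7 and its difference between edge and center changed direction during healing. Day 0 levels were 5.16, 5.40 and 6.07 log2(1 + CPM). The day 1 edge had 6.79, 7.10 and 7.73 and the day 1 center 5.96, 6.62 and 6.70, with no overlap and the edge on top. On day 11 the edge had 5.64, 6.04 and 6.30 and the center 7.14, 7.59 and 8.38, with no overlap and the center on top. The edge was higher by 0.78 on day 1 (SE 0.17, adjusted p = 0.00325) and by 0.49 on day 4 (adjusted p = 0.0293), and lower at -0.90 on day 9, -1.62 on day 11 (SE 0.19, adjusted p = 9.10e-05), -1.24 on day 13, -1.79 on day 15 and -1.29 on day 16. In the wounds, the edge was higher in 16 of 18 on days 1 to 3, in 17 of 24 on days 4 to 7, in 2 of 18 on days 9 to 13 and in 3 of 12 on days 15 to 21. A test of whether the 14 differences were equal gave F = 10.4 and an adjusted p of 1.42e-11. Against day 0 the center rose by 0.86, 1.43, 2.25 (SE 0.23, adjusted p = 1.13e-15, 4.77-fold) and 1.64 in the 4 periods. The edge rose by 1.37, 1.69 (SE 0.22, adjusted p = 1.11e-10), 1.00 and 0.67 (adjusted p = 0.0116), the last lost without TMM (adjusted p = 0.0529) and without replicate 3 (0.145). From days 4 to 7 to days 15 to 21 PDPN decreased by 1.02 at the edge (SE 0.16, adjusted p = 6.24e-08), and in the center the change was 0.22 (adjusted p = 0.219).

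The same test of equal differences among days, which called 30.8% of all genes, passed for 2 of the 7, PDPN and VEGFC (F = 2.38, adjusted p = 0.0262). For VEGFC the call was lost without the samples apart (adjusted p = 0.0829), with the wounds of an animal summed (0.306) and without replicate 1 (0.181), 3 (0.157), 4 (0.192) or 5 (0.0557). The other genes had adjusted p of 0.0636 (FLT4), 0.0758 (RELN), 0.155 (LYVE1), 0.509 (PROX1) and 0.787 (VEGFD). FLT4 passed with summed wounds (0.0193) and without wounds 4 and 6 of day 3 (0.0417, VEGFC 0.0591), and RELN without the samples apart (0.0435) and without replicate 2 (0.0322). With the wound as a block 4 of the 7 were called, with LYVE1 at 0.000733 and FLT4 at 0.0149 in addition to PDPN and VEGFC (0.0144). LYVE1 passed in none of the other alternatives run, with an adjusted p of 0.509 with summed wounds.

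**Figure D3:**
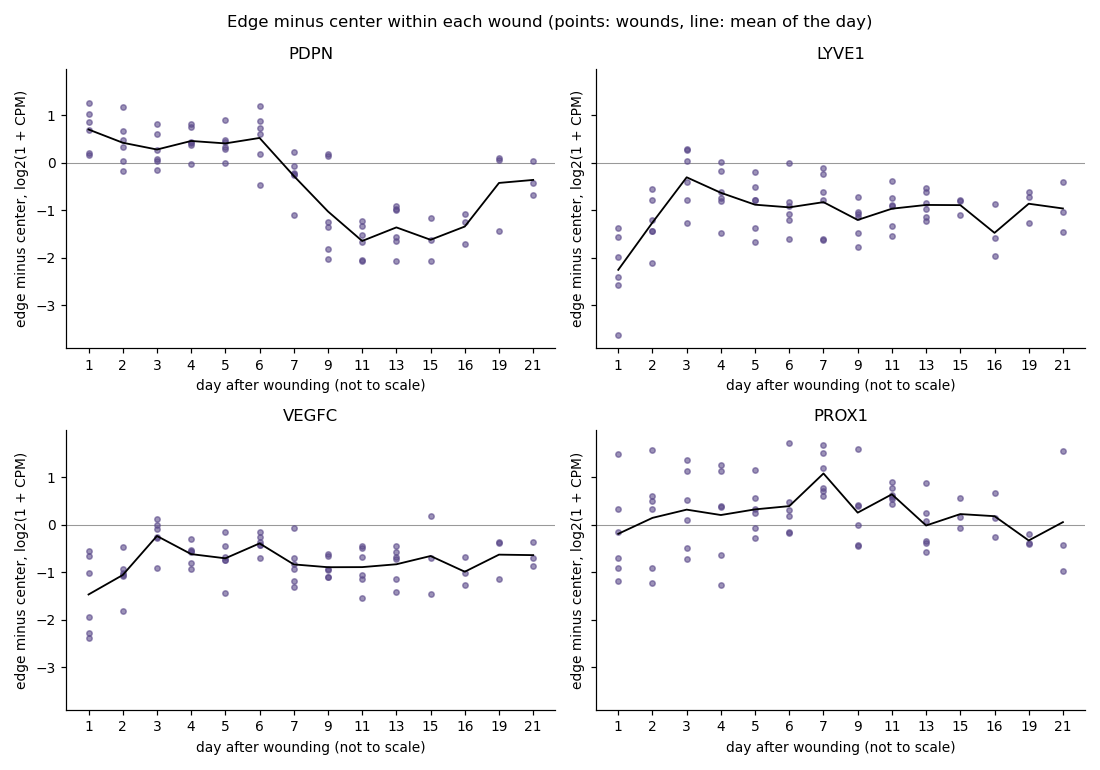
Edge minus center of each wound in log2(1 + CPM), by day after wounding (not to scale), for PDPN, LYVE1, VEGFC and PROX1, with points for wounds and a line for the mean of each day. PDPN points lie mostly above 0 up to day 6 and mostly below 0 from day 9, whereas 68 of 72 LYVE1 points and 70 of 72 VEGFC points lie below 0.

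Edge and center were also compared on the samples of each day alone, in 14 fits. Of 98 tests of the 7 genes, 30 passed. In the first week 3 of the 7 were called on day 1, when 46.6% of all genes were, 2 on day 2 (35.5% of all genes), 4 on day 4 (27.8%) and 1 each on days 5 and 6 (37.1% and 14.2%). Day 7 had the most, with 5 of the 7 (37.4% of all genes). Later, 3 were called on day 9 (31.6%), 4 on day 11 (43.4%), 3 of the 7 on day 13 (28.4%), 1 gene on day 15 (17.4%) and 3 genes on day 16 (10.1%). On day 21 no member passed (0.0684% of all genes, 10 genes). On days 3 and 19 edgeR called 0 of the 7 and 0% of all genes, with 1667 and 479 genes below 0.05 before adjustment, and DESeq2 called 1 and 9 genes. Day 3 held the wounds named above. Without the samples apart 2630 genes were called on that day and none of the 7, with LYVE1 at -0.97 (SE 0.34, adjusted p = 0.0708) in place of -0.12. Without wounds 4 and 6, left out after seeing the data, 1577 genes were called and again none of the 7, with LYVE1 at -0.49 (adjusted p = 0.227). Before adjustment 4 of the 7 were below 0.05 on day 19 and 1 on day 21, all lower at the edge, and none of the 7 on day 3. DESeq2 gave the same counts before adjustment and called none of the 7 on these days. VEGFC was lower at the edge on 9 days, LYVE1 on 8 and PDPN on 5, with PDPN higher on 2. Differences on day 1 were the largest for LYVE1, at -2.12 (SE 0.38, adjusted p = 0.000938), and for VEGFC, at -1.54 (SE 0.27, adjusted p = 0.000766). VEGFD was lower at the edge on day 4, at -0.79 (adjusted p = 0.0318).

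On day 7, the day with the most calls, 3 of the 7 were higher at the edge and 2 lower. Calls in both directions were also made on days 1, 4 and 11. PROX1 was higher at the edge by 1.60 (SE 0.45, adjusted p = 0.0135), RELN by 1.43 (SE 0.40, adjusted p = 0.0135) and FLT4 by 0.91 (SE 0.32, adjusted p = 0.0394), while LYVE1 was lower there, at -0.87 (SE 0.29, adjusted p = 0.0349) and so was VEGFC, at -0.83 (SE 0.25, adjusted p = 0.0216). For RELN the edge had 2.73, 4.00 and 4.44 log2(1 + CPM) and the center 1.94, 2.27 and 3.57, and for FLT4 the edge had 3.32, 4.56 and 4.78 and the center 2.93, 3.34 and 4.30. The ranges of both genes overlapped between the locations. Elsewhere PROX1 passed on day 11, at 0.92 (SE 0.26, adjusted p = 0.0120), and RELN on day 16 in the other direction, at -0.74 (SE 0.14, adjusted p = 0.0325).

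With the states ordered by their mean level, at most 1 of the 28 neighbouring pairs was further apart than 1 SD for any of the 7 genes. Sorting 29 states makes such gaps small in any data, so this cannot show whether the states form groups. Day 0 ranked 28th of 29 for LYVE1 and for PDPN and 27th for VEGFC, but 12th for PROX1, 17th for RELN, 20th for FLT4 and 21st for VEGFD. The highest states of FLT4 were the centers of days 16, 19 and 13 and those of RELN the centers of days 16, 13 and 21, whereas those of VEGFC and VEGFD were the centers of days 4, 5 and 6, those of LYVE1 the centers of days 1, 2 and 7, and those of PDPN the centers of days 13, 11 and 9. The lowest state of PROX1, FLT4, RELN, VEGFC and VEGFD was the day 1 edge. Across the means of the 29 states, which share libraries, Pearson's r was 0.933 between FLT4 and RELN, 0.740 between PROX1 and FLT4 and 0.732 between PROX1 and RELN. It was 0.864 between LYVE1 and VEGFC, and 0.687 between VEGFC and VEGFD. FLT4 had an r of -0.00522 with its ligand VEGFC and 0.184 with VEGFD, and PROX1 had -0.321 with LYVE1. Over the 150 single samples r was 0.835 between FLT4 and RELN, 0.672 between LYVE1 and VEGFC and -0.0304 between PROX1 and LYVE1.

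The genes of the table with the most similar course over the 29 states were named for each of the 7, among 13152 genes with a symbol and a mean CPM of at least 1. For PROX1 they were SCN3A (r = 0.827), MMRN1 (0.797), which encodes multimerin 1 of lymphatic endothelium, and PXDC1 (0.784). For RELN they were MMRN1 (0.910) and FAM234A (0.908). For FLT4 they were HOXD9 (0.923), TNN (0.900) and MXRA8 (0.897). LYVE1 was closest to SH2D3C (0.966), ARAP3 (0.959) and PECAM1 (0.957), the adhesion molecule of endothelium. VEGFC was closest to FGD5 (0.970), PDGFB (0.963) and MCAM (0.949). PDPN was closest to the collagenase gene MMP1 (0.916), TMSB4 (0.889) and SRGAP1 (0.885), and VEGFD to RHOBTB3 (0.841), ARL3 (0.841) and LRRC73 (0.830). Over the 150 single samples each of these r was lower, from 0.410 for PROX1 with PXDC1 to 0.878 for VEGFC with FGD5.

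Endothelium in general was followed with 8 genes (PECAM1, CDH5, VWF, CLDN5, ESAM, EGFL7, ROBO4 and ERG). All 8 were higher in the center than on day 0 in each of the 4 periods, when 26.5% to 34.3% of all genes were. All 8 were also lower at the edge than in the center (33.8% of all genes), with a median of -0.752. At the edge 3 of the 8 were higher than on day 0 on days 1 to 3 (24.9% of all genes). In each later period there 7 of the 8 were (18.1% to 28.4%). The summed CPM of all 8 was 329 to 516 on day 0, 732 to 2460 in the center on days 1 to 3 and 730 to 1790 in the center on days 15 to 21. The change from each animal's own day 0 skin was compared between the 7 genes and the mean of these 8. In the center on days 1 to 3 the endothelial mean rose by 1.67 ± 0.229 (SD, n = 6 animals), in 6 of 6 animals. Relative to it, PROX1 stood at -2.14 ± 0.789, RELN at -2.14 ± 0.397 and FLT4 at -1.92 ± 0.575, below it in 6 of 6 animals each, while LYVE1 stood at 0.479 ± 0.343, above it in 6 of 6. On days 15 to 21, when the endothelial mean was at 1.30 ± 0.332, FLT4 stood at -0.211 ± 0.402 and RELN at -0.155 ± 0.420 relative to it, below it in 4 and 3 of 6 animals. PROX1 remained at -1.25 ± 0.714, below it in 6 of 6. LYVE1 stood at 0.0627 ± 0.663 in that period, above the endothelial mean in 2 of 6. VEGFC in the center stood between -0.523 ± 0.151 on days 1 to 3, below the endothelial mean in 6 of 6 animals, and -0.147 ± 0.228 on days 4 to 7. On days 15 to 21 it was at -0.3725 ± 0.159, below that mean in 6 of 6 animals and further from it than FLT4 and RELN.

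Of 10 other genes of lymphatic endothelium, 5 were higher and 1 lower in the center on days 15 to 21 than on days 4 to 7, with a median of 0.994, beside 26.2% and 26.3% of all genes. They included CCL21, the chemokine that draws dendritic cells into lymphatics, at 1.98, STAB2, a scavenger receptor for hyaluronan, at 1.86 and MMRN1 at 1.46, while NTS, which encodes neurotensin, was at -1.86. At the edge 1 was higher and 3 were lower (18.2% and 22.7% of all genes), near the background. In the center on days 1 to 3, 3 were higher and 4 lower than on day 0, also near the background of 33.6% and 33.2%, with STAB2 at -1.46 and the largest changes in TFF3, a trefoil peptide, at -5.44 and NTS at 2.86. On days 15 to 21, 5 were higher and 1 lower than on day 0 (26.5% and 30.2% of all genes), with STAB2 at 2.37 and NRP2, a coreceptor of FLT4, at 2.36, and again with TFF3 at -5.69 and NTS at 2.62. Over the 29 states FLT4 had an r of 0.918 with STAB2 and 0.893 with MMRN1, but 0.0977 with the mean of the endothelial list. LYVE1 had 0.910 with that list and -0.0748 and -0.151 with STAB2 and MMRN1. FLT4 also had 0.759 with CCL21, 0.799 with the collagen gene COL1A1 and 0.716 with the mean of a list of fibroblast genes. For RELN these values were 0.725, 0.837 and 0.732. STAB2 was listed in 2 rows of the table, of which the one with the larger counts was used, so its reads could be split. Its levels were low, with a median of 0.389 log2(1 + CPM) on day 0. In the center the medians were 0.0811, 0.553, 1.53 and 1.47 in the 4 periods, so its fold changes rest on few counts. Of the 10 genes, 1 was at 0 in all center samples of days 4 to 7.

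**Figure D4:**
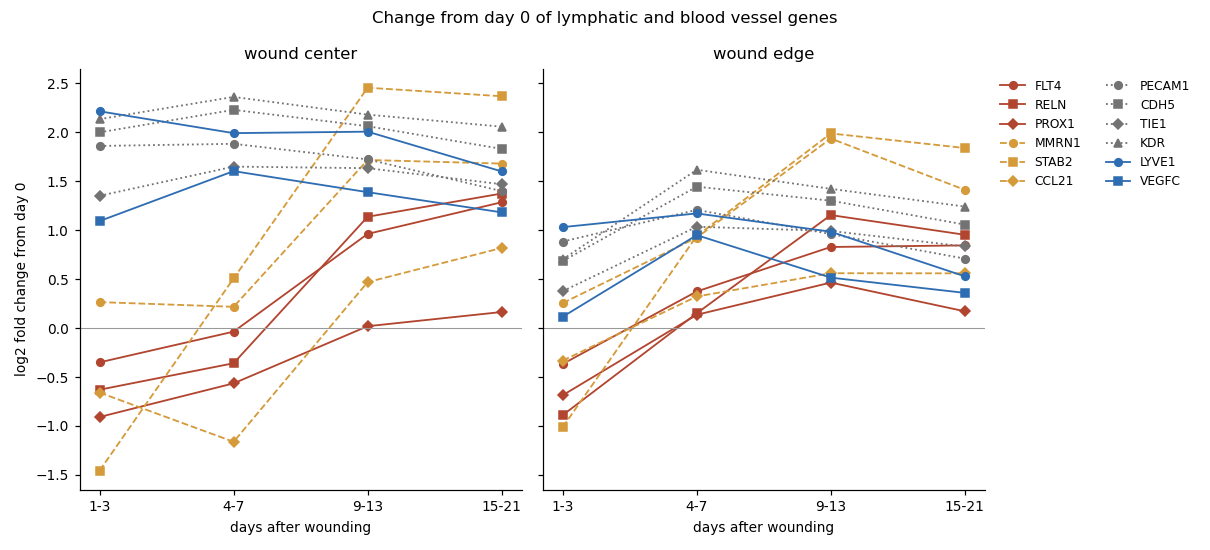
Log2 fold change from day 0 skin in 4 periods, in the wound center (left) and at the wound edge (right), for FLT4, RELN and PROX1 (red), LYVE1 and VEGFC (blue), the lymphatic genes MMRN1, STAB2 and CCL21 (orange, dashed) and PECAM1, CDH5, TIE1 and KDR of endothelium in general (grey, dotted). In the center the grey and blue lines lie at 1.09 or above in every period, whereas the red and most orange lines start below 0 and climb by days 9 to 13.

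The pathway around the 2 ligands was followed with 9 further VEGF genes. Over all days 7 of these were lower at the edge and 1, CCBE1, which helps to cleave VEGFC into its active form, was higher there by 0.18, with a median of -0.476, beside 33.8% of all genes lower and 32.5% higher. The largest differences were those of the receptor KDR at -0.92, of NRP1 at -0.69 and of SVEP1 at -0.66. In the center 8 of 9 were higher than on day 0 in each of the first 3 periods (31.7% to 34.3% of all genes). On days 15 to 21, 5 of 9 were higher there (26.5%). ADAMTS3, the protease that cleaves VEGFC, had -0.46 on days 1 to 3, which did not pass, and rose by 1.28 on days 4 to 7 and 1.83 on days 9 to 13. Between days 4 to 7 and days 15 to 21, 5 fell in the center (26.3% of all genes) and 7 at the edge (22.7%), among them VEGFA at -0.97 and -0.70. At each location 1 rose (26.2% and 18.2%), SVEP1 at 0.60 and 0.61. CCBE1 was listed in 3 rows and ADAMTS3 and SVEP1 in 2 each, so their reads could be split.

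The angiopoietin and TIE genes were lower at the edge in 6 of 6 cases (median -0.693), beside 33.8% of all genes. So were the 4 genes of the adrenomedullin pathway, which is needed for lymphatic growth (median -0.561). Of 9 transcription factors used by lymphatic endothelium, 3 were higher at the edge (TBX1 at 1.02, MAF at 0.70 and FOXC2 at 0.54) and 5 lower, among them HHEX and SOX18 at -0.71 each. The share of higher genes was near the 32.5% of all genes, and 33.8% of all genes were lower. Of 7 genes of lymphatic valves, 4 were higher at the edge (32.5% of all genes), led by CELSR1 at 2.87 and VANGL2 at 0.95, and 1, GJA4, was lower (33.8%) at -0.80. Several of the valve genes are also genes of the epidermis. KRT5 had medians of 12.2 to 13.3 at the edge. In the center its medians were 4.79 to 5.31 up to day 13 and 11.7 on days 15 to 21. The part of the epidermis in these differences was not tested. Of the Reelin receptors VLDLR and LRP8 and the adaptor DAB1, VLDLR was higher at the edge by 0.32 and the other two did not pass. LRP8 rose against day 0 in the center in all 4 periods, by 1.21, 1.19, 1.30 and 1.19 (26.5% to 34.3% of all genes were higher). DAB1 fell in the last 3, at -1.36, -1.26 and -1.17. VLDLR was lower in those 3 periods as well, so that 2 of the 3 genes were lower (30.2% to 36.9% of all genes). The medians of the 3 genes were -0.788, -0.894 and -0.767. VLDLR was listed in 2 rows, so its reads could be split.

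Markers of other cells that can make LYVE1 and PDPN moved as well. All 7 macrophage genes (CD163, MRC1, CD68, CSF1R, C1QA, C1QB and C1QC) were lower at the edge over all days (33.8% of all genes). All 7 were higher in the center than on day 0 in each period (26.5% to 34.3%), and none was at 0 in all samples of a period. Their summed CPM was 228 to 469 on day 0, 753 to 2860 in the center on days 1 to 3 and 204 to 2310 at the edge on days 1 to 3. LYVE1 had an r of 0.858 with the macrophage list over the 29 states, beside 0.910 with the endothelial list, and the part of either in its rise was not tested. Of 8 fibroblast genes, all were lower at the edge over all days (33.8% of all genes), with a median of -0.247. Their summed CPM lay between 25400 and 81800 on day 0, between 6890 and 52000 in the center on days 1 to 3 and between 50200 and 109000 in the center on days 9 to 13. PDPN had an r of 0.203 with that list and -0.333 with the keratinocyte list, of which 6 of 8 genes were found. It had 0.598 with the macrophage list and 0.513 with a list of neutrophil genes. The part of any of these cells in the course of PDPN was not tested.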

How the data were processed

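The RNA of 150 pig skin and wound samples was extracted with a kit for fibrous tissue, enriched for poly-A and sequenced as paired reads by a service provider. The authors deposited read counts per gene without normalization, and these counts were used for all tests. The authors also deposited FPKM values, which were used here only as an alternative scale of the levels. The aligner, the counting tool and the genome build are not given in the sources used here, nor is whether counting used strand. Levels are log2(1 + CPM), with CPM computed from the counts and the sample's total (13133379 to 24895572), so that 3 counts equal 0.121 to 0.228 CPM, a precision that takes in counting error alone.

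Day and location in the labels put each sample in 1 of 29 states. Differences were tested in R 4.3.3 by the quasi-likelihood test of edgeR 4.0.16 after TMM scaling. Genes had to pass filterByExpr (count of at least 10, total of at least 15), and p-values were adjusted by Benjamini-Hochberg over all of them. The design had 1 coefficient per state in a single fit, and the comparisons by day used each day's samples alone. The fits were tested on simulated data first. Edge and center samples of a wound are paired by their labels, and their deviations from the state means had a mean r of 0.27 over 14081 genes, above 0 in 64 of 72 wounds. The values reported are from the fit without this pairing as a block. No 2 sample columns were identical. Python 3.11.15 with numpy 2.4.6, pandas 2.3.3 and matplotlib 3.10.9 was used for levels, correlations and figures.

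Alternatives were median-of-ratios size factors, library size without TMM, DESeq2 1.42.0 (without the test among days), no count filter, a replicate block, the counts of an animal's wounds summed, no samples that stand apart, each replicate number left out in turn, and, for the comparisons by day, a single fit of all samples. The replicate block was the wound for edge against center and for the test among days, and the animal for the other comparisons. A fit without wounds 4 and 6 of day 3 was chosen after seeing the data. The 7 genes, the gene lists and the markers were chosen with earlier results of these data known. Beside the 7 genes, the text names up to 4 genes with the largest called change per list and comparison, the 3 genes most correlated with each of the 7, and marker genes, except 1 gene that is counted in its list and otherwise not reported here. Where a symbol had several rows, the row with the largest counts was used. Symbols came from the name column for 12300 genes and from the protein match for 9387. No sequence of these genes was used here.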

Additional observations from a re-analysis of the deposited data

Results flagged for a closer look

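In 8 of 147 groups of 6 samples, a single sample lay far from the others, where about 1 in 20 groups, or 7.35 of 147, would be expected by chance. The ratio is the sample's gap to its nearest neighbour divided by the whole range of the group, and levels are log2(1 + CPM). LYVE1 in the day 0 skin of animal 6 was at 2.14, the others between 3.18 and 3.54 (ratio 0.742). LYVE1 in the sample day 3 edge 6, whose keratins go against its location, was at 6.62, the others between 3.74 and 4.75 (0.649). LYVE1 in day 9 center 2 was at 4.02, the others between 4.94 and 5.31 (0.711). PDPN in day 6 center 4 was at 7.73, the others between 6.61 and 6.90 (0.739). VEGFC in day 7 edge 2 was at 4.86, the others between 3.40 and 3.79 (0.733). VEGFD in day 4 center 2 was at 3.64, the others between 4.58 and 5.09 (0.651), and in day 5 edge 2 at 3.26, the others between 4.00 and 4.36 (0.670). RELN in day 5 edge 3 was at 2.17, the others between 2.92 and 3.29 (0.671).

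The difference between edge and center differed among the 14 days for PDPN (edgeR quasi-likelihood F test, adjusted p = 1.42e-11) and for VEGFC (adjusted p = 0.0262). PDPN kept its call in each alternative run, and VEGFC lost it in the alternatives given with its result.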

How the results depend on the processing

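Of 770 values of single genes under the alternatives, 717 kept their direction and their side of the threshold. Another 19 fell short of it, 11 passed it and 23 changed sign. Of the 6 fits without 1 replicate number, only the lowest and the highest change of each result were counted here. Changes in the remaining fits are therefore not in these totals. None of the 23 sign changes passed the threshold, and the cause was not tested. They were PROX1 in the center on days 9 to 13 (-0.0219 with median-of-ratios size factors, -0.0670 without TMM, -0.0218 with DESeq2, -0.0292 with the replicate block and also -0.0292 without the samples apart, -0.147 to 0.309 without 1 replicate number), VEGFD in the center on days 1 to 3 (0.142 without TMM, 0.130 with the replicate block, 0.100 without the samples apart, 0.0683 without wounds 4 and 6 of day 3, -0.173 to 0.0934 without 1 replicate number) and PROX1 at the edge between days 4 to 7 and days 15 to 21 (-0.152 without TMM, -0.318 to 0.258 without 1 replicate number). The others appeared only when 1 replicate number was left out: RELN between edge and center (-0.0926 to 0.0208), FLT4 in the center on days 4 to 7 (-0.108 to 0.0525), PROX1 in the center on days 15 to 21 (-0.0161 to 0.45) and at the edge on days 4 to 7 (-0.0402 to 0.334) and 15 to 21 (-0.00854 to 0.463), VEGFC at the edge on days 1 to 3 (-0.00293 to 0.156), RELN at the edge on days 4 to 7 (-0.0331 to 0.215), VEGFD at the edge on days 9 to 13 (-0.112 to 0.0360), and between days 4 to 7 and days 15 to 21 in the center PDPN (-0.0464 to 0.442) and VEGFD (-0.416 to 0.118).

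The count of the 7 genes called at the edge between days 4 to 7 and days 15 to 21 was 5, and 3 to 5 without 1 replicate number. In the test of equal differences over the 14 days it was 2, between 1 and 3 without 1 replicate number, and 4 under the replicate block. Beside that test, the block added among the 7 genes only LYVE1 in the center between days 4 to 7 and days 15 to 21 and moved the calls by day from 30 to 36. Calls by day numbered 20 to 27 without 1 replicate number and 26 to 33 with the scalings, DESeq2, summed wounds, no filter, a single fit and the fits without samples. Levels of PROX1, with 5 to 119 counts, were the least precise.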
